A study of Caenorhabditis elegans with 2 samples.

Results

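Tubulin is the building block of microtubules. An alpha and a beta subunit pair as a dimer, and dimers add end to end into the hollow filaments of the mitotic spindle, of axons and of cilia. *C. elegans* has several genes for each subunit. TBA-1 and TBA-2 (alpha) and TBB-1 and TBB-2 (beta) are known as the tubulins of the early embryonic spindle, and *tbb-4* encodes a beta tubulin of the ciliated sensory neurons. The 6 genes described here are *tba-1*, *tba-2*, *tba-4*, *tbb-1*, *tbb-2* and *tbb-4*, taken by symbol from the 20191 genes counted. They were chosen by name, with earlier results of these data known.

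Transcripts were counted in single cells of embryos grown to the 100-200 cell stage, from Wild Type (N2) and from *spr-5; met-2* mutants. The labels give the alleles as spr-5(b101) I and met-2(n4256) III, and the study's methods spell the first both b101 and by101. SPR-5 removes methyl groups from lysine 4 of histone H3, and MET-2 adds them to lysine 9. The mutant embryos were F1 progeny of homozygous double mutants, so that both enzymes were lost in mother and embryo. Embryos of both genotypes were dissociated with chitinase, and 1 droplet library was made from each. In such a library each unique molecular identifier (UMI) counts 1 captured transcript 3' end. Levels are UMIs summed over cells and given per 1000000 UMIs of the same cells (CPM). They are not divided by gene length, since each UMI counts 1 transcript end. With 1 library per genotype there is no replicate check and no test. All intervals are at 95%, cover counting error only, and compare these libraries and not the genotypes.

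The Wild Type library gave 219 cells with 1013190 UMIs and the mutant library 686 cells with 732058. The median was 2086 UMIs per cell in Wild Type against 726.5 in the mutants. In Wild Type 18 very large barcodes, each past 10000 UMIs, contributed 48.6% of the cell total, and 11 barcodes occurred among the cells of both libraries. Mitochondrial genes gave a median of 0.731% of the UMIs of a cell in Wild Type against 1.98% in the mutants. The mutated genes were still detected, with 83 and 40 UMIs for *spr-5* and 64 and 20 for *met-2*, which does not check the genotypes, since ends outside a lesion are counted. A CPM value is a share of the UMIs, so that less tubulin RNA and more of other RNA cannot be told apart.

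The 6 genes are spread over 4 chromosomes of the ce11 build, and all are protein coding. *tba-1* (WBGene00006528) lies on chromosome I from 9785781 to 9787624, and *tba-2* (WBGene00006529) on the same chromosome from 12964674 to 12966795. *tbb-1* (WBGene00006536) and *tbb-2* (WBGene00006537) are both on chromosome III, from 10740868 to 10742432 and from 4015910 to 4017627. *tba-4* (WBGene00006530) is on chromosome II from 10918706 to 10920211 and *tbb-4* (WBGene00006538) on chromosome X from 9434452 to 9436893. All but *tba-4* are on the minus strand. The 5 other genes have 3 or 4 exons and *tbb-4* has 7. None overlaps another protein coding gene. Tubulin genes are close copies of each other in their coding sequence, and reads that match several copies are not counted by Cell Ranger, so a copy with little sequence of its own may be undercounted.

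Transcripts of the 4 broadly expressed genes were lower in the mutant library, and *tbb-1* had the largest difference of them. Of the alpha genes, *tba-1* had 1401 UMIs (1383 CPM, 1311 to 1457) in Wild Type and 479 UMIs (654 CPM, 597 to 716) in the mutants, and a mutant over Wild Type ratio of 0.473 (0.426 to 0.525). *tba-2* had 1689 UMIs (1667 CPM, 1588 to 1748) and 621 UMIs (848 CPM, 783 to 918), a ratio of 0.509 (0.463 to 0.558). The intervals of the 2 libraries are far apart for both genes, and the 2 ratios overlap each other. Of the beta genes, *tbb-1* had 1345 UMIs (1327 CPM, 1257 to 1400) in Wild Type and 291 UMIs (398 CPM, 353 to 446) in the mutants, giving a ratio of 0.299 (0.263 to 0.340). *tbb-2*, at almost the same level as *tbb-1* in Wild Type, had 1356 UMIs (1338 CPM, 1268 to 1412) and 565 UMIs (772 CPM, 709 to 838), a ratio of 0.577 (0.522 to 0.637). The ratio of *tbb-1* lies below those of the other 3 genes, and its interval overlaps none of theirs.

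The fifth and sixth genes were far less abundant. *tbb-4* had 67 UMIs (66.1 CPM, 51.2 to 84.0) in Wild Type and 57 UMIs (77.9 CPM, 59.0 to 100.9) in the mutants. Its ratio of 1.18 (0.812 to 1.70) does not separate from 1 at this depth, and it is 0.979 when the libraries are scaled by the median of ratios over all genes. *tba-4*, another alpha tubulin gene, had 1 UMI in Wild Type against 0 in the mutants, where 0 UMIs allow up to 4.10 CPM (3 counts). It was therefore not compared. In Wild Type *tba-2* was the most abundant of the 6, followed by *tba-1*, *tbb-2* and *tbb-1*, whose intervals overlap. In the mutants *tba-2* came first, its interval overlapping that of *tbb-2*, followed by *tba-1* and, well below, *tbb-1*. Among all genes *tba-2* ranked 64th by UMIs in Wild Type against 167th in the mutants, and *tbb-1* 110th and 429th.

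**Figure D1:**
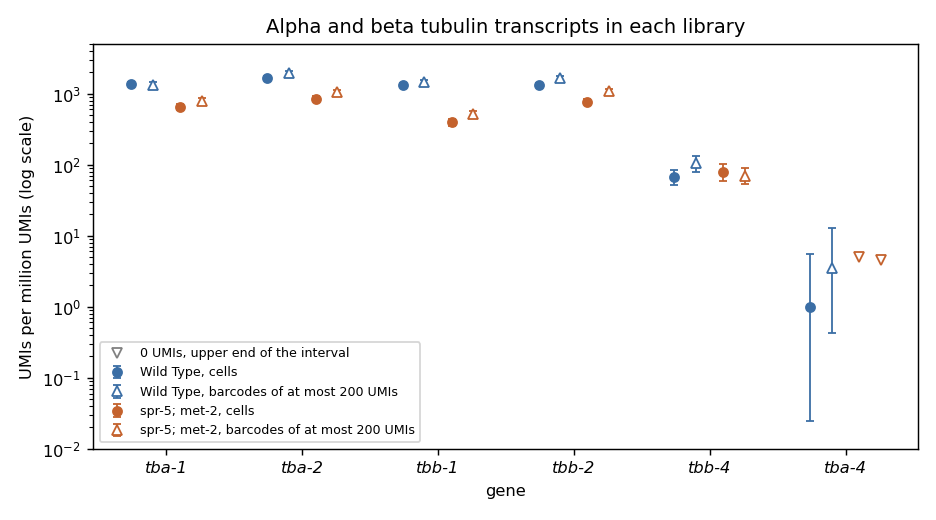
Level of each of the 6 genes in CPM (log axis) for Wild Type (blue) and *spr-5; met-2* (orange), in cells (filled circles) and in barcodes of at most 200 UMIs (open triangles), with exact Poisson 95% intervals. The 4 abundant genes sit between 1327 and 1667 CPM in Wild Type cells and between 398 and 848 CPM in mutant cells, *tbb-4* at 66.1 and 77.9 CPM, and *tba-4* near or at 0.

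Summed over the 6 genes, tubulin transcripts were at 5783 CPM (5636 to 5933) in Wild Type cells and 2750 CPM (2631 to 2873) in mutant cells, a ratio of 0.476 (0.452 to 0.5003). The alpha genes together had a ratio of 0.493 (0.459 to 0.528) and the beta genes one of 0.457 (0.423 to 0.492). For 5 of the 6 genes the libraries together held 20 UMIs or more, and of these 4 were lower in the mutants with a log2 difference past 0.25, 0 were higher and 1 (*tbb-4*) lay between. Over all 6839 genes of that depth, 24% were lower by that size and 51.1% were higher. Past 1 on the log2 scale were 2 of the 5, *tba-1* and *tbb-1*, against 5.35% of all genes lower past it. The median log2 ratio was -0.97 for the 5 genes and 0.27 for all genes. Abundant genes as a whole had lower ratios. Among 291 genes with at least 1000 UMIs, 49.5% were lower past 0.25 and 17.2% past 1, with a median of -0.24. The log2 ratio of *tbb-1* was -1.74, and 1.23% of the 6839 genes, or 4.81% of the 291, had a lower one. For *tba-1*, *tba-2* and *tbb-2* 14.1%, 18.2% and 24.1% of the 291 were lower still. Among genes of like abundance *tbb-1* was therefore nearer the low end than the other 3 were. The libraries also differ in depth and in mitochondrial share, as given above, and in their mix of cells. In the clusters described below the mutant library held 64 neuron-like cells against 3 in Wild Type. It held 25 intestine-like cells against 1, and 22 cells against 1 in the muscle-like cluster 10. The part of these differences in the ratios was not tested.

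Tubulin was detected in most cells of both libraries. At least 1 UMI of the 6 genes was found in 97.3% of Wild Type cells (94.1 to 99.0, exact Clopper-Pearson) and in 80.03% of mutant cells (76.8 to 83.0). With every cell thinned to 500 UMIs, which left out 162 mutant cells, the shares were 90.9% (86.2 to 94.3) of 219 cells and 70.6% (66.5 to 74.5) of 524. The mean was then 2.89 tubulin UMIs in a Wild Type cell and 1.33 in a mutant cell, with at most 11 and 7. The median was 2 in Wild Type against 1 in the mutants. *tbb-1* alone was seen in 47.5% of thinned Wild Type cells and in 18.9% of thinned mutant cells. The difference is present at equal depth.

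Between cells of like depth the summed level also differed. Cells with 750 to 2000 UMIs were divided into a shallower and a deeper set. In the shallower set 52 Wild Type cells had 5091 CPM and 160 mutant cells 2575 CPM, a ratio of 0.506 (0.431 to 0.594). In the deeper set the ratio was 0.539 (0.468 to 0.622), and with 2000 to 4000 UMIs it was 0.575 (0.521 to 0.635). In the deepest cells that both libraries hold, with 4000 to 10000 UMIs, it was 0.339 (0.281 to 0.404), from 35 and 13 cells. *tbb-1* had the lowest value of the 4 genes in each of these ranges, with ratios of 0.355, 0.406, 0.291 and 0.285, but its interval overlapped those of the other 3 in all but the 2000 to 4000 UMI cells. In the deepest shared cells *tbb-2* was almost as low, at 0.293 (0.196 to 0.423).

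The summed level was lower in the mutant library outside the cells too, by a smaller factor. Barcodes of at most 200 UMIs, taken here as droplets with free RNA and no cell, had 6542 CPM (6333 to 6756) of tubulin in the Wild Type library and 3537 CPM (3408 to 3669) in the mutant library. Their ratio was 0.541 (0.515 to 0.568), nearer 1 than the 0.476 (0.452 to 0.5003) of the cells. Here *tbb-1* was again lowest at 0.355 (0.315 to 0.400). *tbb-4* was at 0.670 (0.457 to 0.983), against 1.18 (0.812 to 1.70) in cells. Of all genes 19.7% were lower by more than 0.25 there. Cells had 0.884 times (0.848 to 0.921) the tubulin level of these barcodes in Wild Type against 0.778 times (0.734 to 0.824) in the mutants. Since cells did not exceed free RNA in either library, the summed level alone does not show which part of it was made in a given cell, and the part of free RNA in the difference was not tested.

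The balance between the 2 alpha genes was similar in both libraries, with *tba-2* ahead, whereas that between the beta genes differed. Such shares are ratios within a library and do not depend on how libraries are scaled. *tba-1* gave 45.3% (43.6 to 47.1) of the alpha tubulin UMIs in Wild Type against 43.5% (40.6 to 46.5) in the mutants, and these intervals overlap. *tbb-1* gave 48.6% (46.7 to 50.5) of the beta tubulin UMIs in Wild Type against 31.9% (28.86 to 35.005) in the mutants. *tbb-2* took the larger share in the mutants, with 61.9% (58.6 to 65.0) against 49.0% (47.1 to 50.9), and *tbb-4* gave 6.24% (4.76 to 8.01) against 2.42% (1.88 to 3.06). Alpha tubulin made up 52.8% (51.5 to 54.04) of all tubulin UMIs in Wild Type against 54.6% (52.4 to 56.8) in the mutants. In the barcodes of at most 200 UMIs *tbb-1* had 45.7% of the beta UMIs in Wild Type against 31.3% in the mutants, close to the values in cells.

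The difference in the *tbb-1* share was not seen at every depth. In cells of 2000 to 4000 UMIs it was 50.5% (45.9 to 55.1) in Wild Type against 27.02% (21.9 to 32.6) in the mutants. In the 2 shallower ranges the mutant share was lower by point value, with intervals that overlap. In cells of 4000 to 10000 UMIs it was 43.5% (39.7 to 47.3) in 35 Wild Type cells and 42.9% (29.7 to 56.8) in 13 mutant cells, where *tbb-1* had 24 of 56 beta UMIs.

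The lower *tbb-1* share was found in each of the 5 clusters of cells that held at least 10 cells of both genotypes. Cells were clustered with the tubulin genes left out, and a cluster was given a tissue name, as "X-like", only from known markers. Cluster 2 has no name and is led by *eyg-1* and the homeobox genes *ceh-5* and *pha-2*, with *ngn-1* and *sox-2* enriched. There the share was 53.3% (48.9 to 57.7) in Wild Type against 34.4% (27.6 to 41.7) in the mutants. In cluster 4, body wall muscle-like by 13 markers, it was 55.4% (44.7 to 65.8) and 32.1% (20.3 to 46.0). In cluster 5, hypodermis-like, it was 48.7% (45.4 to 52.0) and 29.6% (20.8 to 39.7), and in cluster 11, which has no name, 50.7% (46.7 to 54.7) and 30.3% (15.6 to 48.7). Cluster 3, body wall muscle-like only by the early regulators *hlh-1*, *unc-120* and *hnd-1*, none of them among its 10 leading genes, had 42.9% (37.4 to 48.6) and 36.3% (26.98 to 46.4). The intervals overlap in clusters 3, 4 and 11. The *tba-1* share moved in no common direction over these clusters.

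**Figure D2:**
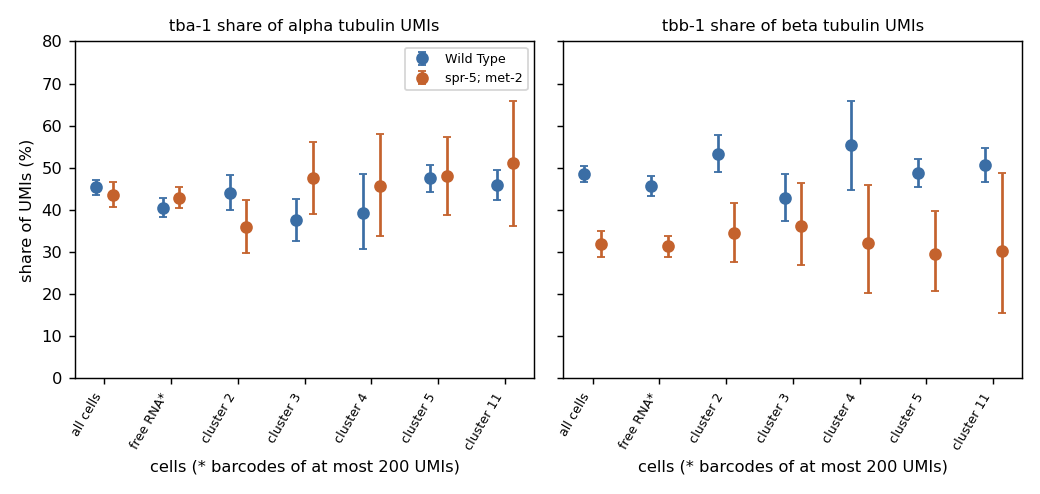
Share of *tba-1* in the alpha tubulin UMIs (left) and of *tbb-1* in the beta tubulin UMIs (right), in percent, for Wild Type (blue) and *spr-5; met-2* (orange), with exact binomial 95% intervals. The mutant points for *tbb-1* lie between 29.6% and 36.3% and every Wild Type point between 42.9% and 55.4%, whereas the points for *tba-1* of both libraries mix.

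In the same 5 clusters, which hold 196 of the Wild Type and 326 of the mutant cells, the summed tubulin level was lower in the mutants. Cluster 2 had 7085 CPM in 64 Wild Type cells and 3807 CPM in 77 mutant cells, a ratio of 0.537 (0.479 to 0.602). Cluster 3 had 5800 and 2899 CPM (57 and 81 cells), a ratio of 0.4999 (0.430 to 0.579). The cells of cluster 4, in which sarcomere genes were enriched, had less tubulin in both genotypes, at 3196 and 1621 CPM (37 and 78 cells), a ratio of 0.507 (0.404 to 0.634). The hypodermis-like cells had 5380 and 2209 CPM (28 and 78 cells), a ratio of 0.411 (0.355 to 0.472), with 6447.5 UMIs in the median Wild Type cell and 670.5 in the median mutant cell. Cluster 11 had 6176 and 2250 CPM (10 and 12 cells), a ratio of 0.364 (0.287 to 0.457), and its Wild Type cells were the deepest, at a median of 16270 UMIs. The share of all genes lower by more than 0.25 was 33.3%, 31.7%, 32.6%, 38.4% and 44.1% in clusters 2, 3, 4, 5 and 11.

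Gene by gene, *tba-1*, *tba-2*, *tbb-1* and *tbb-2* were lower by point value in 20 of 20 pairs of gene and cluster, and the interval lay below 1 in 19 of them. All pairs come from the same libraries and are not separate observations. For all genes only the shares lower by more than 0.25, given above by cluster, stand beside this count. The exception was *tbb-2* in cluster 4, at 598 and 489 CPM and a ratio of 0.817 (0.511 to 1.303). *tbb-1* ranged from 0.199 (cluster 11) to 0.400 (cluster 3) and was the lowest of the 4 genes in every one of these clusters. Its interval was apart from those of all the others only in cluster 5. In clusters 3, 4 and 11 it overlapped that of *tbb-2* too. *tba-1* ranged from 0.434 to 0.660 and *tba-2* from 0.352 to 0.641.

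**Figure D3:**
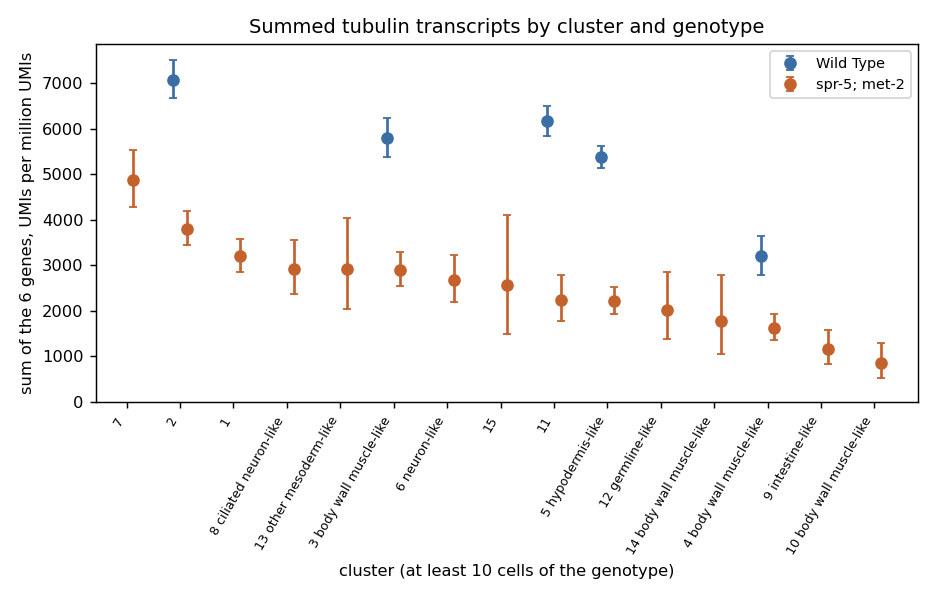
Summed level of the 6 genes in CPM for every cluster with at least 10 cells of a genotype, ordered by the mutant level, with exact Poisson 95% intervals (Wild Type blue, *spr-5; met-2* orange). Mutant levels run from 4882 CPM in cluster 7 to 845 CPM in the muscle-like cluster 10, and the 5 Wild Type points all lie above the mutant points of their cluster.

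Among the 15 clusters of the mutant library the summed tubulin level varied widely. It was highest in cluster 7, at 4882 CPM (4281 to 5543) in 26 cells, a cluster without a name that is led by *dsl-2* and the Skp1-related genes *skr-9* and *skr-10*. The 6 Wild Type cells of that cluster had 11048 CPM (9874 to 12323), more than any Wild Type cluster of at least 10 cells. The lowest levels were in muscle-like and intestine-like cells. Cluster 10, muscle-like by 13 markers (sarcomere and attachment genes and the regulator gene *unc-120*), had 845 CPM (523 to 1292), and the intestine-like cluster, which has *elt-2* and *elt-7*, had 1157 CPM (823 to 1582). Neuron-like cells (2679 CPM), ciliated neuron-like cells (2924 CPM) and mesoderm-like cells with *cup-4* (2915 CPM) were in between, and their intervals overlap. The germline-like cells had 2021 CPM (1383 to 2854) in 16 mutant cells and 3061 CPM (2515 to 3689) in 4 Wild Type cells.

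Across the 15 mutant groups of cells the summed tubulin level went with the summed level of 25 mitosis genes, such as those for cyclin B and for condensin subunits, with a Spearman rho of 0.832. Over all 20 groups of both genotypes rho was 0.674. With the 19 tubulin folding genes it was 0.0393 over the 15 mutant groups. Groups of cells of 1 library share that library's depth and free RNA, and these values are descriptions.

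*tbb-4* was highest in another set of cells. In the mutants its highest level was in the ciliated neuron-like cells, at 434 CPM (243 to 716), with 15 of its 57 UMIs in 9 of 30 cells. That was 7.21 times (3.71 to 13.3) the level in all other mutant cells, and *tbb-4* made up 33.3% (20.001 to 49.0) of the beta tubulin UMIs there. This cluster is named from cilium genes, among them *osm-5*, *che-3* and *che-11*, and *tbb-4* was not used to form it. Only 1 Wild Type cell falls in it, with 0 UMIs of *tbb-4*. The second place in the mutants was that of cluster 2, which had the highest level of the 5 Wild Type clusters with at least 10 cells. It was 161 CPM in Wild Type against 163 CPM in the mutants, giving a ratio of 1.02 (0.522 to 1.94). In Wild Type that was 3.28 times (1.92 to 5.51) the level in other cells. These UMIs are few and clustered in few cells, with 14 of the 18 mutant UMIs in 3 cells.

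In hypodermis-like cells *tbb-4* was at 54.5 CPM in Wild Type against 111 CPM in the mutants, giving a ratio of 2.03 (0.875 to 4.50), and 17 of the 19 Wild Type UMIs came from 3 cells. In the muscle-like cells of the mutants, clusters 3, 4, 10 and 14, there were 0 UMIs. The mutant clusters 9 (intestine-like), 13 (mesoderm-like) and 15 (no name) had 0 UMIs as well. In Wild Type cluster 4 had 0 too, but cluster 3 had 6 UMIs or 49.1 CPM, 0.717 times (0.253 to 1.65) the level elsewhere. The 0 UMIs (3 counts) allow up to 36.1 CPM in mutant cluster 3 and up to 38.6 CPM in mutant cluster 4, both below the 69.7 CPM in the barcodes of at most 200 UMIs.

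**Figure D4:**
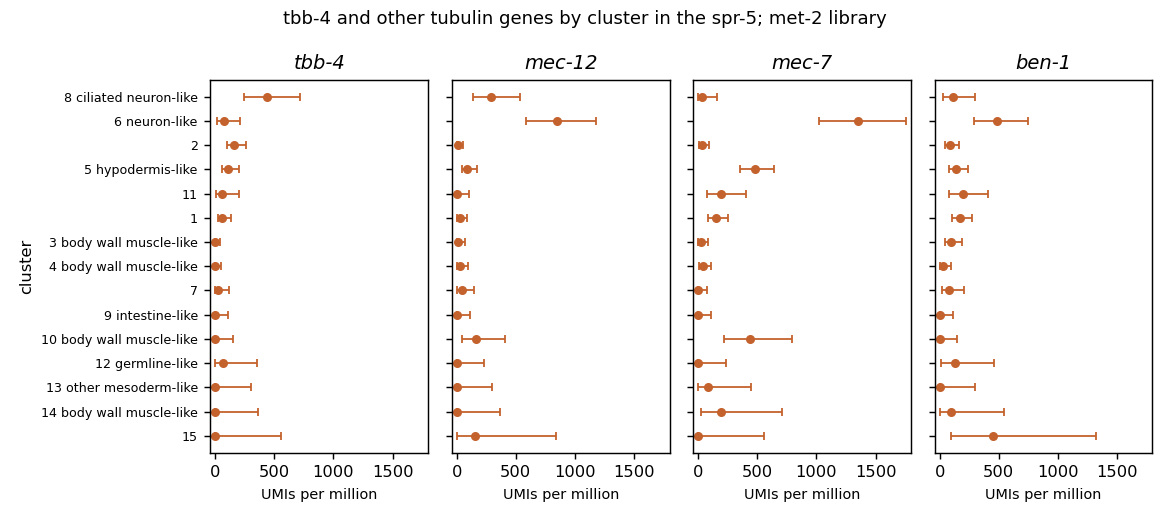
Level of *tbb-4*, *mec-12*, *mec-7* and *ben-1* in CPM for each of the 15 clusters of the *spr-5; met-2* library, with exact Poisson 95% intervals. *tbb-4* is highest in ciliated neuron-like cells (434 CPM), and *mec-12* (845 CPM), *mec-7* (1352 CPM) and *ben-1* (483 CPM) are highest in neuron-like cells.

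Of 10 other tubulin genes 4 had at least 20 UMIs, and 3 of these were higher in the mutants by more than 0.25, beside 51.1% of all genes. MEC-12 (alpha) and MEC-7 (beta) are known from the large microtubules of the touch receptor neurons. *mec-12* had 3 UMIs in Wild Type against 68 in the mutants, giving a ratio of 31.4 (10.3 to 156). It reached 20 UMIs only through the mutant library, so it could only count as higher. Of the mutant UMIs 35 were in the 64 neuron-like cells, at 845 CPM or 17.7 times (10.7 to 29.4) the level elsewhere, and only 3 Wild Type cells fell in that cluster. In barcodes of at most 200 UMIs *mec-12* had 5 UMIs in Wild Type against 45 in the mutants. *mec-7* had 96 and 150 UMIs, a CPM ratio of 2.16 (1.66 to 2.82), with 1352 CPM in neuron-like mutant cells, where 45 of 56 UMIs were in 3 cells. Its UMIs in Wild Type were mostly in hypodermis-like cells, 80 of 96, and 52 of these 80 came from 3 cells.

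*ben-1*, the beta tubulin gene whose loss makes worms resistant to the drug benomyl, had 73 UMIs in Wild Type against 92 in the mutants, giving a ratio of 1.74 (1.27 to 2.41). In the neuron-like mutant cells it was at 483 CPM, 4.63 times (2.67 to 7.69) the level elsewhere. The gamma tubulin gene *tbg-1*, which acts in microtubule nucleation, had 63 and 29 UMIs, or 0.637 times the Wild Type level (0.396 to 1.004). The other 6 genes, *tba-5* to *tba-9* and *tbb-6*, had at most 5 UMIs in a library. The mutant library also held more such cells, 64 against 3 neuron-like and 30 against 1 ciliated neuron-like, and their part in these ratios was not tested. Within single clusters *mec-7* had ratios of 2.11 (1.44 to 3.05) in cluster 5 and 7.32 (2.11 to 26.4) in cluster 11, there from 6 and 7 UMIs. In clusters 2 and 3 it was at 1.41 and 0.980, with intervals that include 1. *ben-1* was at 2.24 (1.06 to 4.57) in cluster 5 and 3.66 (1.22 to 10.1) in cluster 11. In clusters 2, 3 and 4 it was at 0.671, 3.92 and 0.588, with intervals that include 1.

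**Figure D5:**
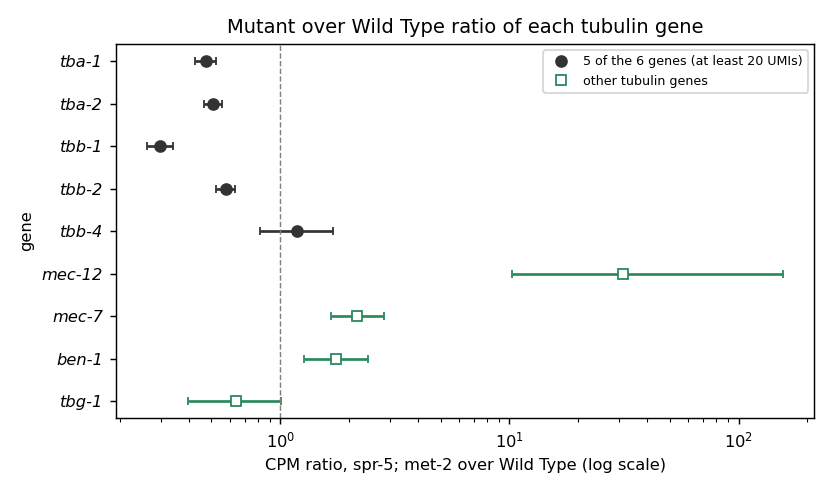
CPM ratio of the mutant to the Wild Type library (log axis) for 5 of the 6 genes (filled circles) and for 4 other tubulin genes (open squares), with exact 95% intervals; the dashed line marks a ratio of 1. The ratios of *tba-1*, *tba-2*, *tbb-1* and *tbb-2* lie between 0.299 and 0.577, *tbb-4* crosses 1, and *mec-12*, *mec-7* and *ben-1* lie above 1.

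No list of genes that act on tubulin had a summed ratio as low as that of the 6 genes. Most genes of these lists were less abundant than the 4 abundant tubulin genes, and abundant genes had lower ratios, as given above. Of 18 tubulin folding genes with enough UMIs, 6 were higher and 6 lower by more than 0.25. Their median log2 ratio was -0.05 and their summed ratio 0.984 (0.924 to 1.05). Of all genes 51.1% were higher and 24% lower by that size. Of the 8 CCT chaperonin genes, whose ring folds tubulin, 5 were higher and 0 lower, beside those same shares of all genes. Here *cct-3* had the highest ratio at 2.24 (1.503 to 3.37), with 42 and 68 UMIs. Of the 6 prefoldin genes, which pass new chains to that ring, 0 were higher and 3 lower. Of these 3 *pfd-1* was at 0.590 (0.475 to 0.728), from 298 and 127 UMIs, the one gene of the list whose interval lay below 1. The most abundant prefoldin genes were *pfd-3* at 0.886 (0.746 to 1.05) and *pfd-6* at 0.886 (0.736 to 1.06). The lowest ratio of the list was that of *evl-20* at 0.554 (0.211 to 1.31), from 20 and 8 UMIs.

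Microtubule nucleation and centrosome genes were also mixed, with 5 of 16 higher, 6 lower and a summed ratio of 1.07 (1.002 to 1.14). Beside these counts and the next ones, 51.1% of all genes were higher and 24% lower. The most abundant was *noca-1* at 1.56 (1.32 to 1.84), from 273 and 308 UMIs. The centrosome scaffold gene *spd-5* came next in UMIs and had the highest ratio at 1.62 (1.35 to 1.95) and *mzt-1*, a small subunit of the gamma tubulin complex, the lowest at 0.270 (0.182 to 0.392). Of 15 genes of microtubule binding and dynamics 10 were higher and 3 lower, with a median of 0.45. The dynactin gene *dnc-1* was at 1.35 (1.13 to 1.61) and the midzone bundling gene *spd-1* lowest at 0.705 (0.531 to 0.931). *cls-1* had the highest ratio, from 1 and 22 UMIs (30.4, 4.92 to 1257). *cls-1* and *mei-2* (9 and 19 UMIs) reached 20 UMIs only through the mutant library, so they could only count as higher.

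Motor genes were mostly higher, 15 of 21 against 1 lower, with a median of 0.56 and a summed ratio of 1.37 (1.2996 to 1.45). The most abundant were the dynein heavy chain gene *dhc-1* at 2.59 (2.19 to 3.08) and the kinesin gene *bmk-1* at 0.906 (0.773 to 1.06). *klp-15* was highest at 10.7 (3.79 to 41.8), from 4 and 31 UMIs. It is a near copy of *klp-16*, so that reads matching both may be left uncounted. *klp-15* and *unc-104* (4 and 27 UMIs) reached 20 UMIs only through the mutant library. The dynein light chain gene *dyrb-1* was lowest at 0.277 (0.140 to 0.507). The shares of all genes beside these counts are 51.1% higher and 24% lower.

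Of 6 tubulin modification genes 5 were higher and 0 lower, with *ttll-5* at 1.76 (1.29 to 2.39), *hda-6* at 1.47 (1.07 to 2.01) and the tubulin acetyltransferase gene *mec-17* highest at 23.5 (6.03 to 202), from 2 and 34 UMIs. All 4 cilium genes with enough UMIs were higher. Of them *che-3*, a dynein chain of cilia, was at 37.4 (6.16 to 1530) from 1 and 27 UMIs. The ciliary regulator *daf-19* was at 2.23 (1.40 to 3.62). *che-3*, *osm-1* (5 and 20 UMIs), *osm-5* (4 and 24) and *mec-17* reached 20 UMIs only through the mutant library. The filter thus let them count only as higher. The mutant library also held 30 ciliated neuron-like cells against 1 in Wild Type, and their part was not tested. The cilium list holds the same genes as the markers that named those cells, so these counts are not separate information. Mitosis genes leaned lower, with 12 of 23 lower and 4 higher, a median of -0.29 and a summed ratio of 0.908 (0.878 to 0.939). Beside the counts of the modification, cilium and mitosis lists, 51.1% of all genes were higher and 24% lower. In this list *cyb-3*, a cyclin B, was lowest at 0.494 (0.435 to 0.560), *top-2*, the most abundant, was at 0.951 (0.872 to 1.04) and *mix-1* was highest at 1.51 (1.38 to 1.65). The summed tubulin ratio of 0.476 was lower than the summed ratio of every one of these lists. Most genes of the lists were less abundant than the 4 abundant tubulin genes, so the comparison is not a like one. The median log2 ratio was -0.24 among genes with at least 1000 UMIs and 0.27 among those with at least 20.

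Directions of some of these lists depend on the scaling. The median of ratios lowers every log2 ratio by 0.27, after which 37.4% of all genes were lower past 0.25 and 38.4% higher. Of the 5 tubulin genes still 4 were lower and 0 higher. Among the 291 genes with at least 1000 UMIs, which include these 4, 67.4% were then lower past 0.25, with a median of -0.50. Folding genes then counted 2 higher and 9 lower, centrosome genes 3 and 7, binding genes 7 and 3, motors 12 and 6, modification genes 5 and 0, cilium genes 4 and 0, and mitosis genes 1 and 17.

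The cell patterns of the 5 genes were compared with those of 3240 genes over the 20 groups of cells with at least 10 cells, by rank correlation of levels. *tba-2* and *tbb-1* were among the 3 genes most like each other, with a rho of 0.943. The SUMO gene *smo-1* was among the 3 genes most like *tba-1* (0.890), *tba-2* (0.958) and *tbb-1* (0.932). The others were *pen-2* and *erh-1* for *tba-1*, and the histone genes *his-60* (0.925) for *tba-2* and *his-18* (0.923) for *tbb-1*. Histone genes come in near identical copies, so these last names are uncertain. For *tbb-2* they were *ctf-8* (0.901), *mcm-7* (0.881), a replication helicase gene, and *C50F4.6* (0.874), and its rho with *tbb-1* was 0.693. For *tbb-4* they were *lron-11* (0.839), *shc-2* (0.815) and *ast-1* (0.808), a transcription factor gene of neurons. The groups share 2 libraries, their depth and their free RNA, and a difference between the libraries enters every rho.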

How the data were processed

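Each deposited matrix holds counts of UMIs per gene and barcode, unfiltered and not normalized; the authors used Cell Ranger 3.0.2 and the ce11 build for these 10x libraries, and Seurat afterwards. Cells were the 219 (Wild Type) and 686 (mutant) barcodes of most UMIs, numbers taken from the sample titles, and barcodes of at most 200 UMIs were read as free RNA. Counts were summed over cells and divided by their total to give CPM. Ratios have exact conditional binomial intervals, CPM exact Poisson and shares Clopper-Pearson intervals, at 95%, for counting error only, and the limit at 0 is 3 counts. Cells, normalized to 10000 UMIs, were clustered without tubulin genes in Scanpy 1.11.5 (anndata 0.12.19, Python 3.11.15, numpy 2.4.6, pandas 2.3.3, scipy 1.17.1, matplotlib 3.10.9) and igraph with 2000 variable genes, 20 components, 15 neighbours and Leiden resolution 1.0. A tissue name needed 3 or more of its markers to be enriched 2 times and either to outnumber those of the next tissue by more than 1.5 times or to hold 2 of the 10 leading genes, with no tie and with no other tissue holding more of those 10, a rule set after seeing the data; 5 of 15 stayed without a name. Scrublet (expected rate 4%) called 11 and 2 doublets, which were kept. Coordinates are from Ensembl release 115.

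Genes named are the 6 members, other tubulin genes with at least 20 UMIs, the 2 most abundant genes and those with the highest and lowest ratio of each related list, the 3 genes most like each member (at least 100 UMIs, log2 of CPM + 10) and *spr-5* and *met-2*; further genes were named after their values were seen. Members and lists were chosen with earlier results of these data known. Alternatives changed cells kept, depth, doublets, cell weights, scaling, the genes in the total, free RNA and clustering; those on depth ranges, single clusters and genes of at least 1000 UMIs were chosen after seeing the data. Ratios and intervals were tested on simulated data.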

Additional observations from a re-analysis of the deposited data

Results flagged for a closer look

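Tubulin transcripts were also present outside the cells compared. In barcodes of at most 200 UMIs, which enter no comparison of cells, the 6 genes had 6542 CPM in the Wild Type library and 3537 CPM in the mutant library, against 5783 and 2750 CPM in the cells. Both values are above the 3 counts that a count of 0 allows. How much of the tubulin counted in cells came from this RNA was not tested.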

How the results depend on the processing

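The summed tubulin ratio stayed below 1 in all 14 alternatives, between 0.395 with the median of ratios and 0.521 in cells of 750 to 2000 UMIs, against 0.476. The other 12 stayed within its counting interval. All 14 gave 4 genes lower past 0.25. *tbb-4* became 1 gene higher past it with every barcode of at least 500 UMIs, without called doublets, in cells thinned to 500 UMIs, with 20% free RNA subtracted and without cluster 11, and its ratio ranged from 0.859 to 1.60. The Wild Type *tba-1* share of alpha UMIs (45.3%) moved to 42.7% without barcodes of more than 10000 UMIs, 40.7% in thinned cells, and 43.1%, 43.4% and 42.4% with clusters of resolution 1.0, 0.6 and 1.5 at equal weights. The *tbb-1* share of beta UMIs moved in thinned cells to 52.5% (Wild Type) and 35.5% (mutants), and to 50.7% in Wild Type at resolution 0.6. The Wild Type alpha share (52.8%) moved to 54.1% and 54.4% with clusters of resolution 1.0 and 1.5 at equal weights and to 54.3% in cells of 750 to 2000 UMIs. The cause was not tested. Among all genes, the share lower past 0.25 was 37.4% and the share higher 38.4% by the median of ratios. A pseudocount of 1 cannot change the ranks behind the genes most like each member. No paired analysis was possible because each genotype has 1 library. Few UMIs limit *tbb-4* and *tba-4* most.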
